A study of Mus musculus with 3 samples.

Results

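The genes described here are *Acan*, *Vcan*, *Hapln1* and *Scrg1*, which encode aggrecan, versican, link protein and the small secreted protein Scrg1. They were chosen by gene symbol in the table of probe sets that the authors selected, where each of the 4 had 1 probe set, and these are 4 of the 1524 probe sets of that table and of the 35512 on the arrays. The cells were ATDC5, a mouse chondroprogenitor line, on day 15 of culture with insulin, transferrin and selenium, transduced with a lentiviral short hairpin RNA (shRNA). The *Tet1* knockdown (KD) group was 2 arrays, 1 with the hairpin Tet1sh1 (hairpin 1) and 1 with Tet1sh2 (hairpin 2), and the control was 1 array with a nontarget (NT) hairpin. All cells were otherwise wild type, and the methods of the study state that transduced cells were selected with puromycin before that culture began, so NT cells share the lentivirus and the selection. Each hairpin was hybridized once, so a difference between hairpins cannot be told apart from a difference between cultures or arrays, and the NT value has no replicate error. Precision is limited by there being only 3 arrays.

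Aggrecan and versican are hyalectans, large proteoglycans whose N-terminal domain binds the glycosaminoglycan hyaluronan and whose C-terminal domain is lectin-like. Link protein binds both hyaluronan and the N-terminal domain of aggrecan and locks them together. The many chondroitin sulfate chains of aggrecan draw water into cartilage, while versican is typical of provisional matrix, including that of condensing mesenchyme before cartilage forms. Scrg1 was first found through scrapie-infected brain and is also expressed by chondrocytes. TET1 oxidizes 5-methylcytosine, mostly in CpG pairs.

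The bases just before the gene starts are shown because the comparison concerns an enzyme that acts on CpG pairs. RefSeq sequences of build GRCm38.p6 were held for 3 of the 4 members, each the 250 bases before an annotated start, 5′ to 3′ on the gene's strand, with CpG pairs in capitals. The array files carry no coordinates. The windows are chr7:79052976-79053225 on the plus strand for *Acan*, chr13:89742513-89742762 on the minus strand for *Vcan* and chr13:89540386-89540635 on the plus strand for *Hapln1*.
Acan: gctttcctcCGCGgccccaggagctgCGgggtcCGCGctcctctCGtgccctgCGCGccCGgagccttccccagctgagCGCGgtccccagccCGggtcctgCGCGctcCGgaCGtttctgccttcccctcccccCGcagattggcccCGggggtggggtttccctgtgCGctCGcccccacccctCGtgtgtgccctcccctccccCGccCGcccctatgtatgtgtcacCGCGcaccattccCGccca
Vcan: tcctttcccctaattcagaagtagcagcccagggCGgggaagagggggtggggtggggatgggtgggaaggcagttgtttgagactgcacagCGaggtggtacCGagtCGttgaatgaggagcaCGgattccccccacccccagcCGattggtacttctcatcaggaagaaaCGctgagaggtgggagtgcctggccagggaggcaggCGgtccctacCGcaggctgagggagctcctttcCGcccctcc
Hapln1: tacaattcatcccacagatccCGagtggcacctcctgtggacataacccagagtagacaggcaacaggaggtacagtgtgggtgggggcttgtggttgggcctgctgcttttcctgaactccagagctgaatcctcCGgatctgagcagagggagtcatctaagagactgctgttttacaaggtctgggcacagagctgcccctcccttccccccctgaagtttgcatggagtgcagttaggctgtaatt
These 3 windows differed widely in CpG content. The *Acan* window held 26 CpG pairs and 74.4% G or C, and 9.59% of the 32841 windows of this length had at least as many pairs. The *Vcan* window held 10 CpG pairs and 62.4% G or C, and 37.8% of windows had at least as many. The *Hapln1* window held 2 CpG pairs and 54.4% G or C, and 81.2% of windows had at least as many. The median over all windows was 6 CpG pairs and 52.4% G or C. At the low end, 29.0% of windows had at most as many pairs as that of *Hapln1*. Whether CpG content has a part in the lower level of these genes was not tested. Spellings of the core that SOX proteins recognize were searched on both strands, where matches can overlap. ACAAAG was in 16.5% of all windows, the spelling ACAATG in 10.7% and the spelling AACAAT in 9.43%, and 29.6% held at least 1 of them. None of the 3 member windows did, which says only that these letters are not in these bases. The window of *Scrg1* was not analysed here.

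*Tet1* itself had 3 probe sets, and both KD arrays were below NT on each. On the brightest it measured 843 units under hairpin 1 and 726 units under hairpin 2, against 1626 units in NT, so its log2 fold was -1.06 ± 0.31 (SE), short of the threshold of the test described next (limma adjusted p = 0.133). Over all 35512 probe sets the median intensity was 280 units under hairpin 1, 264 units under hairpin 2 and 305 units in NT. Of the chondrocyte genes that mark this line, *Acan*, *Hapln1* and *Col2a1* measured 1427, 2323 and 4914 units in NT, and *Sox9*, *Matn1* and *Comp* were not analysed here.

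All 4 genes had far lower intensity under both hairpins than in NT, with the mean of the KD arrays 7.45-fold lower for *Acan*, 7.42-fold lower for *Scrg1*, 4.41-fold lower for *Hapln1* and 3-fold lower for *Vcan*. Intensity is the authors' normalized brightness of a probe set on a linear scale. In a bulk culture, fewer cells of a type and less RNA per cell cannot be told apart. Log2 folds were taken as the mean of the KD log2 values minus the log2 value of NT, with values under 10 units set to 10. They can therefore differ slightly from the ratios of linear means just given. These folds were tested with limma over the 27311 probe sets that averaged 100 units or more. All 4 members were among those tested, and all 4 passed as lower (adjusted p under 0.05), as did 0.388% of the probe sets tested. *Scrg1* reached the mean needed for the test only through its NT value. With no filter on dim probe sets, none of the 4 passed (limma adjusted p from 0.758 to 0.776) and neither did any other probe set. On simulated tables with known changes, more of the calls of this fit were false in most tables than the threshold allows, so passing is weaker evidence than the adjusted p states. The authors had selected the table that names the members on this same contrast, so that count is a description and supports nothing further. Both KD arrays lay below NT for all 4, which was also so for 48.3% of the probe sets tested.

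*Acan* had the lowest log2 fold of the 4. Its probe set, 10554249, measured 223 units under hairpin 1 and 160 units under hairpin 2, against 1427 units in NT. The KD arrays thus held 15.6% and 11.2% of the NT intensity, and the NT value had an error of 16.3 units within the array, the SE that the authors' model gives over the probes of the set. The KD mean was 192 ± 44.3 units (SD, n = 2), which is the spread between the hairpins. Neither error measures how NT cultures vary, so the gap to NT cannot be judged against them. *Acan* fell by 2.92 ± 0.38 (SE) on the log2 scale, with a 95% interval from -3.72 to -2.11 (limma adjusted p = 0.00054). Of the 27311 probe sets tested, 6, *Acan* included, had a log2 fold this low or lower.

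*Scrg1* was lowered about as much and was the most alike under both hairpins. Its probe set, 10571865, measured 65.7 units under hairpin 1 and 72.2 units under hairpin 2, against 511 units in NT. The KD arrays held 12.9% and 14.1% of the NT intensity. Both KD values were under the 100 units used as the limit for dim probe sets, so the size of its fold depends on how dim values are treated. Its mean over the arrays reached that limit only through NT, so its entry into the test, and its call, rested on that array. The NT value had a within-array error of 42.5 units, or 8.30% of it, against 0.758% to 1.61% for the other members. *Scrg1* fell by 2.89 ± 0.43 (SE) on the log2 scale, with a 95% interval from -3.81 to -1.97 (limma adjusted p = 0.00187). On the scale of log2(value + 32) it fell by 2.43.

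**Figure D1:**
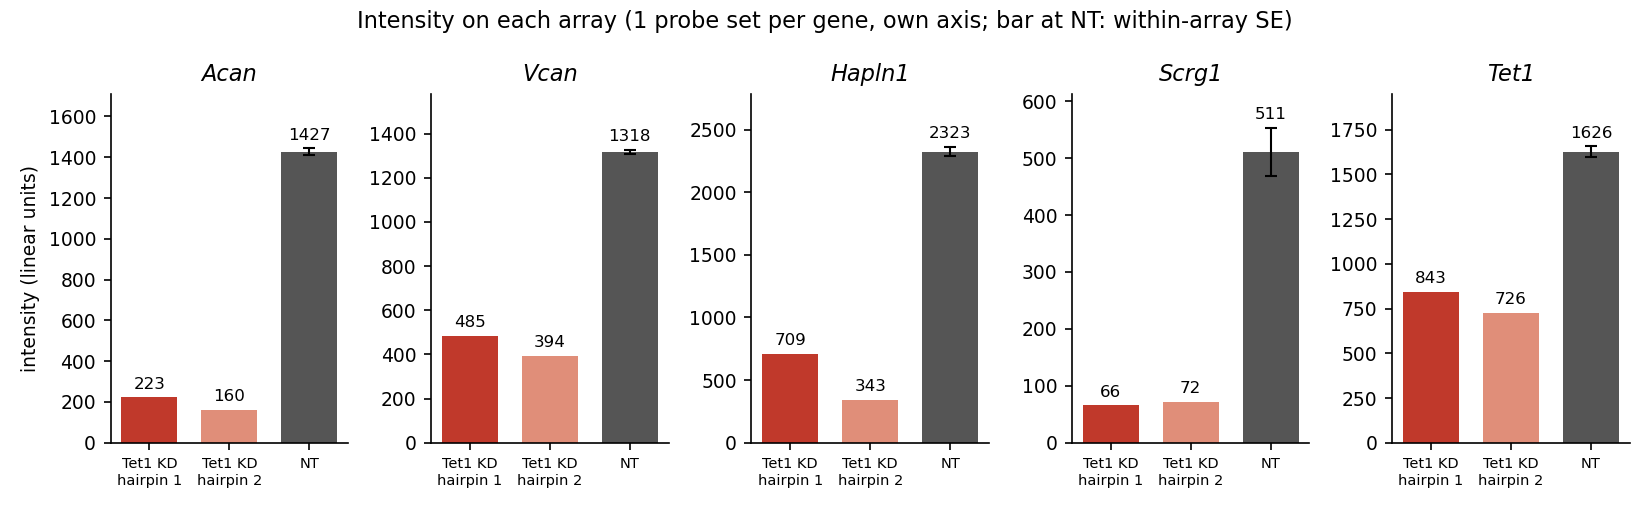
Intensity in linear units on each of the 3 arrays for *Acan*, *Vcan*, *Hapln1*, *Scrg1* and the brightest *Tet1* probe set, each on its own axis from 0, with Tet1 KD hairpin 1 and hairpin 2 left of NT. Each bar is 1 array, the line on the NT bar is the SE within that array, and both KD bars stand below NT in every panel.

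*Hapln1* was lower under both hairpins but not equally so. Its probe set, 10406519, measured 709 units under hairpin 1 and 343 units under hairpin 2, against 2323 units in NT. Hairpin 1 left 30.5% of the NT intensity and hairpin 2 left 14.8%, and the KD mean was 526 ± 259 units (SD, n = 2). *Hapln1* fell by 2.24 ± 0.40 (SE) on the log2 scale, with a 95% interval from -3.09 to -1.38 (limma adjusted p = 0.0082). The call did not hold after quantile normalization (limma adjusted p = 0.0773) or without an intensity trend in the moderation (0.173).

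*Vcan* had the mildest fold of the 4. Its probe set, 10410931, measured 485 units under hairpin 1 and 394 units under hairpin 2, against 1318 units in NT, which is 36.8% and 29.9% of the NT intensity. The NT value had a within-array error of 9.99 units and the KD mean was 440 ± 64.5 units (SD, n = 2). *Vcan* fell by 1.59 ± 0.34 (SE) on the log2 scale, with a 95% interval from -2.32 to -0.86 (limma adjusted p = 0.0264). Quantile normalization ended the call (limma adjusted p = 0.0869), as did median centring (0.0666) and leaving out the intensity trend (0.158). *Vcan* is spliced into several forms that differ in their chondroitin sulfate regions, and its 1 probe set does not separate them.

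By size alone, all 4 genes were at least 2.5-fold and over 100 units lower, as were 0.459% of all 35512 probe sets. *Acan* and *Scrg1* were at least 4-fold lower under each hairpin taken alone, which held for 0.0769% of the probe sets tested, and *Vcan* and *Hapln1* were not. The median log2 fold of the 4 members was -2.57, beside -0.12 over all probe sets tested. The members came from probe sets that the authors selected on this same contrast, so folds larger than over all probe sets were built in. These shares and medians describe size and support nothing further. In order of log2 fold the members ran from *Acan* through *Scrg1* and *Hapln1* to *Vcan*. The 2 hairpin values of *Scrg1*, -2.96 and -2.83, lay within those of *Acan*, -2.68 and -3.15. Those of *Hapln1*, -1.71 and -2.76, did not overlap with those of *Scrg1*, but just reached those of *Vcan*, -1.44 and -1.74. The 95% intervals of neighbours in this order overlapped. The interval of *Vcan* also overlapped that of *Acan*, between -2.32 and -2.11, so at this number of arrays the order is a description.

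The hairpins differed most for *Hapln1*. Its log2 difference, hairpin 2 minus hairpin 1, was -1.05, larger in size than that of 96% of the probe sets tested. It was -0.48 for *Acan*, larger than for 75.5% of probe sets, and -0.30 for *Vcan*, larger than for 55.3%. For *Scrg1* it was 0.13, larger than for 27.6%, and it changed sign to -0.10 after quantile normalization. Over all probe sets tested the median size of this difference was 0.26. *Acan*, *Hapln1* and *Vcan* were thus lower under hairpin 2 than under hairpin 1. So were the brightest *Tet1* probe set, at a log2 difference of -0.22, and the next brightest, at -0.18. The dimmest *Tet1* probe set differed the other way, at 0.37. With 1 array per hairpin these differences have no test.

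**Figure D2:**
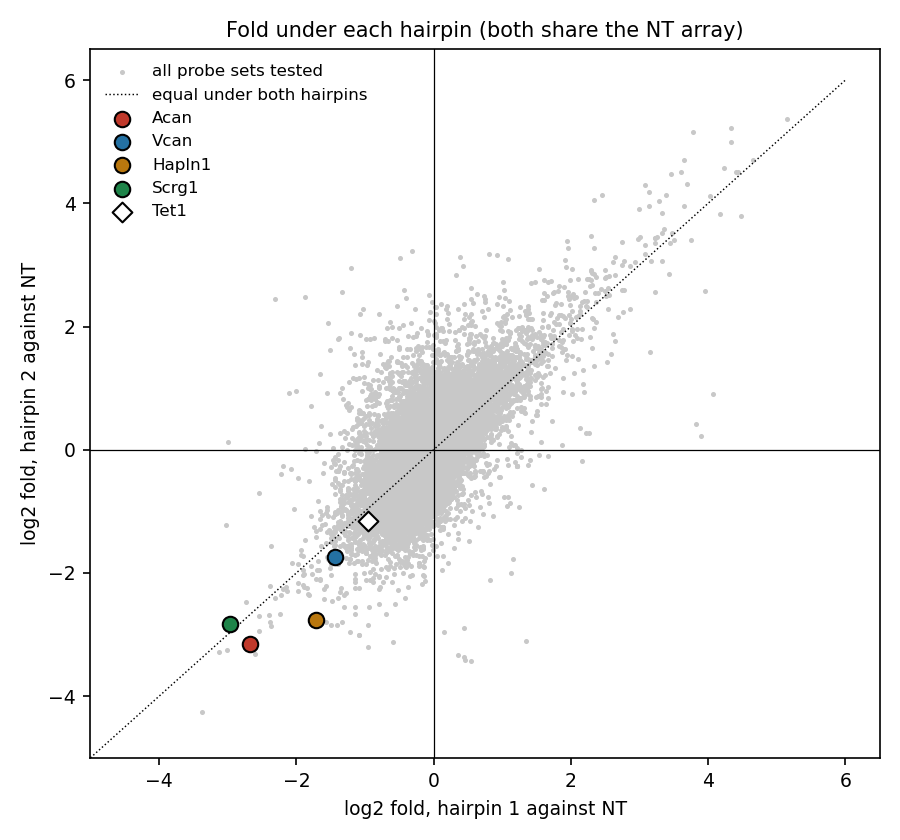
Log2 fold of hairpin 1 against NT (horizontal) and of hairpin 2 against NT (vertical) for the 27311 probe sets tested (grey points), the 4 members (coloured circles) and the brightest *Tet1* probe set (open diamond). Both axes share the NT array, which alone spreads points along the dotted line of equal folds. *Scrg1*, at -2.96 and -2.83, lies next to that line and *Hapln1*, at -1.71 and -2.76, lies below it.

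The genes with the most similar pair of hairpin folds were found by the distance in that plot, in log2 units, over 3 arrays and 1195 other named genes, all from the authors' selected table. Nearest to *Acan* were *Cst6* (distance 0.17), which encodes the protease inhibitor cystatin E/M, the epithelial transcription factor gene *Ehf* (0.25) and the Wnt antagonist gene *Frzb* (0.35). Nearest to *Scrg1* were *Cthrc1* (0.08), which encodes a secreted protein with a short collagen repeat, *Kng2* (0.42), a kininogen gene, and *Frzb* (0.43). *Cthrc1* measured 169 units under hairpin 1 and 172 units under hairpin 2, against 1267 units in NT. Nearest to *Vcan* were *Slco1a4* (0.09), an organic anion transporter gene, *Aldh1l1* (0.10), a gene of folate metabolism, and *Wif1* (0.11), a Wnt inhibitor gene. *Slco1a4* was dim, at 63.4 units under hairpin 1 and 47.2 units under hairpin 2, against 162 units in NT. It was too dim to enter the limma test. Nearest to *Hapln1* were *4930519F16Rik* (0.23), *Cd68* (0.34), which encodes a lysosomal membrane protein, and *Marchf11* (0.42), a ubiquitin ligase gene listed as March11. *Cd68* measured 1458 units under hairpin 1 and 820 units under hairpin 2, against 4424 units in NT, and like *Hapln1* was lower under hairpin 2.

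*Hapln1* and *Vcan* are chromosome neighbours. In the RefSeq annotation they are next to each other among the protein-coding genes of chromosome 13, on opposite strands. Both were lower after KD, *Hapln1* to 30.5% and 14.8% and *Vcan* to 36.8% and 29.9% of NT. Both were picked from probe sets selected for differing on this contrast, so a difference in each was built in. Their outer neighbours, *Edil3* beside *Hapln1* and *Xrcc4* beside *Vcan*, were not analysed here. *Acan* on chromosome 7 lies beside *Hapln3*, another link protein gene, which was not analysed here. *Scrg1* on chromosome 8 lies beside *Sap30*, which encodes a subunit of a histone deacetylase complex. *Sap30* measured 1144 units under hairpin 1 and 1631 units under hairpin 2, against 2864 units in NT, and its log2 fold of -1.07 ± 0.30 (SE) was short of the threshold (limma adjusted p = 0.108).

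Of the 8 hyalectan and link protein genes, 3 were named, and all 3 are members described above. *Ncan*, *Bcan*, *Hapln2*, *Hapln3* and *Hapln4* were not analysed here. Names came only from probe sets selected for differing, so the counts of every list below describe genes picked on these samples.

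Of the 19 genes of hyaluronan synthesis, receptors and turnover, 7 were named, with a median log2 fold of 0.85, beside -0.12 over all probe sets tested. In the limma test 3 rose, none fell and 4 did not pass, while 1.36% of all probe sets tested passed as higher. *Cemip*, whose product binds hyaluronan and promotes its breakdown, measured 2457 units under hairpin 1 and 2798 units under hairpin 2, against 481.5 units in NT. Its log2 value rose by 2.45 ± 0.29 (SE, limma adjusted p = 0.000261). *Itih2*, a heavy chain of the inter-alpha-trypsin inhibitor family that becomes attached to hyaluronan, measured 1440 and 1335 units under hairpins 1 and 2, against 394 units in NT, and rose by 1.81 (limma adjusted p = 0.00662). *Cd44*, the main cell surface receptor of hyaluronan, measured 6869 and 6974 units under hairpins 1 and 2, against 3831 units in NT, and rose by 0.85 (limma adjusted p = 0.0453). For these 3 genes the hairpins were close to each other. After quantile normalization *Cd44* was no longer called (limma adjusted p = 0.0829), and without the intensity trend *Cemip* alone of the 3 passed (0.0372).

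The other named genes of that list did not pass. *Hyal1*, a lysosomal hyaluronidase gene, measured 103 units under each hairpin, against 290 units in NT (log2 fold -1.50, limma adjusted p = 0.11). For *Hmmr*, a hyaluronan-binding protein gene active in mitosis, the log2 fold was -1.13 (limma adjusted p = 0.167). The receptor gene *Stab2* and the hyaluronidase gene *Cemip2*, listed as Tmem2, had log2 folds of 0.85 and 0.78 (limma adjusted p = 0.39 and 0.243). The hyaluronan synthase genes *Has1*, *Has2* and *Has3* were not analysed here.

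Of the 14 proteases that cleave aggrecan or versican, 3 were named, and all 3 were higher and passed on their brightest probe set, where 1.36% of all probe sets tested passed as higher. Their median log2 fold was 1.85, beside -0.12 over all probe sets tested. *Adamts1*, which can cleave both proteoglycans, measured 5360 units under hairpin 1 and 2714 units under hairpin 2, against 1055 units in NT. *Adamts9* had 4 probe sets with log2 folds from 1.42 to 1.73, of which 1 did not pass (limma adjusted p = 0.0753), and *Mmp9* measured 1482 and 1159 units under hairpins 1 and 2, against 294 units in NT. *Adamts1* was higher under hairpin 1 than under hairpin 2, as *Hapln1* was. *Adamts1* was thus further from NT under hairpin 1 (log2 fold 2.34, against 1.36 under hairpin 2), and *Hapln1* under hairpin 2. *Adamts1* no longer passed after quantile normalization, without the intensity trend or with robust moderation (limma adjusted p = 0.105, 0.247 and 0.167). The brightest *Adamts9* probe set failed under the same 3 settings (0.14, 0.275 and 0.0587) and after median centring (limma adjusted p = 0.0609), and *Mmp9* failed without the trend (0.0626).

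Of the 30 genes that make and sulfate chondroitin and keratan chains, 2 were named and neither passed. The sulfotransferase genes *Chst2* and *Chst15*, the second listed as 4631426J05Rik, had log2 folds of 0.81 and 0.77 (limma adjusted p = 0.109 and 0.373). None of the 13 small leucine-rich and related proteoglycan genes and none of the 10 chondrogenic factors was named, and they were not analysed here. Of the 19 other cartilage matrix genes 4 were named and went both ways. *Col2a1*, the main cartilage collagen gene, fell by 1.45, *Col11a1* was at a log2 fold of -1.17 without passing, and *Cytl1* and *Prg4* rose by 1.79 and 3.29. *Col2a1* lost the call after quantile normalization, median centring and without the trend (limma adjusted p = 0.121, 0.069 and 0.293). *Prg4* lost it after quantile normalization, without the trend and with robust moderation (limma adjusted p = 0.0645, 0.138 and 0.177), and *Cytl1* without the trend (0.125). *Col2a1*, at 2279 units under hairpin 1 and 1414 units under hairpin 2, against 4914 units in NT, was like *Hapln1* lower under hairpin 2.

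**Figure D3:**
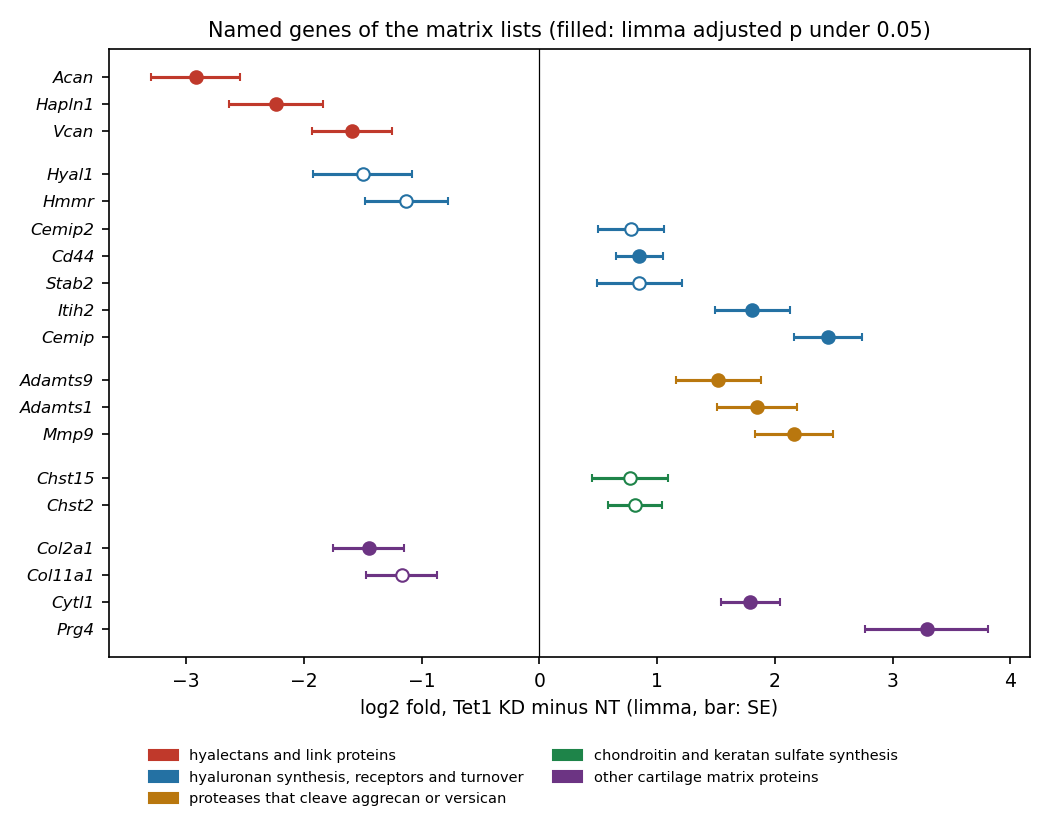
Log2 fold, Tet1 KD minus NT, with its SE from limma (horizontal) for the named genes of 5 matrix lists, the brightest probe set of each, grouped and coloured by list. Filled points passed at an adjusted p under 0.05 and open points did not. The 3 hyalectan and link protein genes lie between -2.92 and -1.59 and the 3 proteases between 1.52 and 2.16.

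Some markers of other cells moved too. Of the 10 fibroblast markers 3 were named, all higher, and 2 passed, *Dpt* with a log2 fold of 1.98 and *Pdgfra* with 1.47, where 1.36% of all probe sets tested passed as higher. *Cd34* was at a log2 fold of 0.69 (limma adjusted p = 0.192). Of the 8 adipocyte markers 1 was named, *Fabp4*, which fell by 2.29, and of the 8 leukocyte markers 2 were named, *Lyz2*, which rose by 1.77, and *Cd68*, which fell by 2.02. Quantile normalization ended the calls of *Cd68* (limma adjusted p = 0.0669), *Lyz2* (0.0602) and *Pdgfra* (0.0669). Leaving out the trend ended those of *Cd68* (limma adjusted p = 0.164), *Lyz2* (0.145), *Pdgfra* (0.229) and *Dpt* (0.131). No marker of endothelium or muscle, of 6 each, was named. Their part in the lower level of the 4 genes was not tested.

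**Figure D4:**
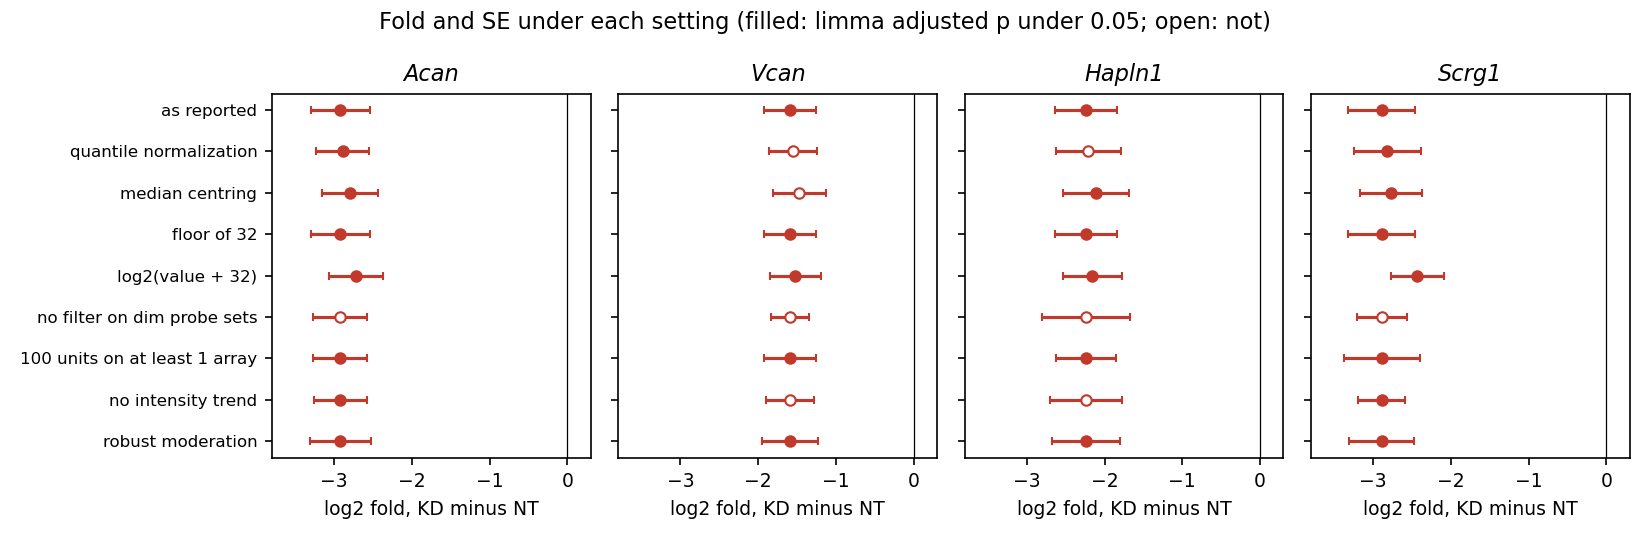
Log2 fold, Tet1 KD minus NT, with its SE (horizontal) for each member as reported and under 8 other settings of the normalization, the handling of dim values, the filter and the moderation (vertical). Filled points passed at a limma adjusted p under 0.05 and open points did not. The folds stay between -2.92 and -1.47 throughout, while all 4 lose the call with no filter on dim probe sets, and *Vcan* and *Hapln1* lose it under other settings too.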

How the data were processed

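Total RNA of 3 cultures was hybridized to Affymetrix Mouse Gene ST arrays. The authors used dChip, with an invariant probe set for normalization and its model for summary, so each deposited intensity is linear and normalized across arrays. The medians over all probe sets still differed, at 280 units under hairpin 1, 264 units under hairpin 2 and 305 units in NT. The build in the submitters' processing notes is mm9. A second deposited table held 1524 probe sets that the authors selected by a 1.5-fold bound and a difference of 100 units, with gene names and the within-array error of NT. Its intensities equalled those of the full table. Its columns of means, folds, bounds and differences are the authors' comparison and were not used. Symbols of its 1330 named probe sets were updated through RefSeq (GRCm38.p6): 1084 by accession, 112 by symbol and 75 by synonym, and 59 were kept.

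Values under 10 units were set to 10, log2 was taken, and the 27311 probe sets averaging 100 units or more were fitted by limma 3.58.1 under R 4.3.3 (lmFit, then eBayes with trend), *Tet1* KD against NT, two-sided, Benjamini-Hochberg adjusted, threshold 0.05. The fit has 1 residual degree of freedom and assumes that NT varies like the KD arrays, so its errors combine the difference between the 2 hairpins with a variance pooled over probe sets of like intensity, and hold no spread of NT. Labels do not state separate cultures beyond the hairpins. The fit was tested on simulated data, where it recovered most of the large changes and few of the small ones, and where in most tables more of its calls were false than the threshold allows. The methods' dChip bound needs probe-level errors and was not rerun. The alternatives were quantile normalization, median centring, 2 treatments of dim values, 2 filters and 2 moderations. For a gene with several probe sets, the brightest stands for it. Members and gene lists were chosen with earlier results of these data known. Named genes were the members, *Tet1*, listed genes that passed limma, the 3 nearest genes and chromosome neighbours. Listed genes that did not pass were added to complete the lists, with their values known.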

Additional observations from a re-analysis of the deposited data

How the results depend on the processing

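All 4 log2 folds kept their negative sign under the 8 settings tried and when either KD array was left out. The filters and moderations cannot change a fold. Leaving out 1 KD array only gives back the fold of the other hairpin against the same NT array, as given above. Without 1 KD array, the fold ranged from -3.15 to -2.68 for *Acan*, from -1.74 to -1.44 for *Vcan*, from -2.76 to -1.71 for *Hapln1* and from -2.96 to -2.83 for *Scrg1*, with no residual degrees of freedom and so no test. With no filter on dim probe sets, no probe set passed limma in either direction (0 higher and 0 lower, 2229 at an unadjusted p under 0.05), and the folds were -2.92 for *Acan*, -1.59 for *Vcan*, -2.24 for *Hapln1* and -2.89 for *Scrg1* (limma adjusted p = 0.758, 0.758, 0.776 and 0.758). In the other settings *Acan* and *Scrg1* kept the call (limma adjusted p from 7.52e-05 to 0.0317 and from 0.000955 to 0.0341). *Vcan* lost it after quantile normalization (fold -1.55), median centring (-1.47) and without an intensity trend (-1.59), and *Hapln1* after quantile normalization (-2.21) and without the trend (-2.24). The cause was not tested. The limma counts were 372 higher and 106 lower (77.8% higher) as reported, 188 and 34 after quantile normalization, 350 and 48 (87.9% higher) after median centring, and 87 and 21 without the trend. By size, 456 probe sets were at least 2.5-fold higher and 163 lower, and 1985 and 2111 at 1.5-fold. After median centring 92 were 2.5-fold lower, and 2992 were 1.5-fold higher and 1090 lower. With 1 KD array left out, counts ranged from 353 to 859 higher and from 175 to 492 lower at 2.5-fold, and from 1479 to 3009 higher and from 1699 to 4104 lower at 1.5-fold, the higher count of each with hairpin 2 alone. The hairpin difference of *Scrg1*, 0.13, was -0.10 after quantile normalization. No paired analysis was possible because there was 1 NT array and no label pairs it with either KD array.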
